A study of Mus musculus with 4 samples.

Results

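The lysosome genes described here were 40 genes chosen by name: the 3 MiT/TFE transcription factors measured (Tfeb, Tfe3 and Mitf), 5 lysosomal membrane protein genes, 15 genes of the vacuolar proton pump (V-ATPase), 9 cathepsin genes, 6 other acid hydrolase genes, and the precursor genes Psap and Grn. All 40 were found among the 40092 genes of the count table, and all 40 passed the filter on low counts that left 16661 genes for testing. They were picked by name and role, with earlier results of these data known, and no measured value entered the rule. The samples were alveolar type 2 (AT2) cells, the surfactant-producing progenitor cells of the alveolus, sorted by GFP from mouse lungs 14 days after bleomycin, an agent that injures the alveolar epithelium. Ctrl mice were Alkbh5flox/+; Sftpc-CreERT2; Rosa26-mTmG and A5-CKO mice were Alkbh5flox/flox; Sftpc-CreERT2; Rosa26-mTmG, with 2 libraries of each genotype. Both genotypes carried the surfactant protein C promoter-driven, tamoxifen-inducible Cre and the mTmG reporter, and both received tamoxifen and bleomycin, so recombination also removed 1 Alkbh5 allele in Ctrl cells, which were not wild type. The Cre acts in cells that use the Sftpc promoter at the time of tamoxifen. Neither the age nor the sex of the mice is given in the sources used here. The sources do not say whether a library came from 1 mouse, so p-values measure only the spread between these libraries, which may be technical.

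The lysosome is the acidic compartment in which cells degrade proteins, lipids and glycans. The V-ATPase has a cytosolic V1 sector that hydrolyses ATP and a V0 sector in the membrane that moves protons inward, and the acid it makes activates the cathepsins (proteases) and the glycan and lipid hydrolases. Tfeb, Tfe3 and Mitf are basic helix-loop-helix factors that bind E-box motifs in the promoters of many lysosomal genes. In AT2 cells, the lamellar bodies that store surfactant are lysosome-related organelles, and cathepsin H takes part in processing surfactant proteins B and C. Macrophages are also rich in lysosomes, so the same genes are read in both cell types.

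The 4 libraries held 18144865 to 20811757 counts, and levels are given as CPM, a gene's counts scaled to a common library size with TMM factors. The limit of detection was set at a count of 3, equal to 0.128 to 0.177 CPM, which covers counting error only. Where 4 values are listed for a gene, the order is Ctrl 1, Ctrl 2, A5-CKO 1, A5-CKO 2. Alkbh5, the targeted gene, had 81.7 and 152 CPM in the Ctrl libraries and 19.3 and 36.6 CPM in the A5-CKO libraries, which matched the labels (log2 fold change -2.06, SE 0.46, edgeR quasi-likelihood adjusted p = 0.528). The loxP sites lie around its first exon, and the counts cover the whole gene, including exons that stay in place. Markers of AT2 cells were high in all 4 libraries (Sftpc 7856 to 16370.5 CPM). The macrophage list of 20 genes was also detected throughout, none of its genes being at 0 in any library, and its summed level was 4998, 970.1, 941 and 4172 CPM. Thus Ctrl 1 and A5-CKO 2 stood apart from the other pair in macrophage markers, across the genotypes. The library pair with the closest counts of all was this same pair (chi-square per degree of freedom 88.7, against 96.4 to 140.3 for the others).

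The lysosome genes made up 2.00%, 1.35%, 1.16% and 1.89% of all counts in the 4 libraries. Their share was lowest in A5-CKO 1, but that of A5-CKO 2 lay between the Ctrl libraries. No lysosome gene passed an adjusted p of 0.05 between the genotypes, and neither did any of the 16661 genes tested (0.0%, edgeR, smallest adjusted p = 0.528). With DESeq2 at its defaults, 0 of the 40 passed, against 0.385% of the 15306 genes with an adjusted p. At an unadjusted p under 0.05, edgeR gave 4 of the 40, against 9.18% of all genes tested. The same count by DESeq2 was also 4, against 6.75% of all genes with a p and 10.3% of those that edgeR tested. The 4 in edgeR were Tfeb, Gaa and Smpd1, lower in A5-CKO (4.71% of all genes), and Atp6v1c1, higher in A5-CKO (4.48% of all genes). A share of 4 in 40 was thus close to the background.

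Most differences pointed the same way with all 4 libraries and TMM factors. The log2 fold change was below 0 for 36 of the 40 lysosome genes, against 50.9% of all genes tested, and its median was -0.43, against -0.02 over all genes. That count was 23 with library totals alone (against 31.4% of all genes), 25 without Ctrl 1 (45.2%) and 26 without A5-CKO 1 (54.3%). Neither A5-CKO library reached the lower of the Ctrl libraries for 17 of the 40, or 42.5%, against 23.5% of all genes. The reverse, both A5-CKO libraries above both Ctrl libraries, was found for 0 of the 40, against 20.3% of all genes. The 17 genes were Tfeb, Tfe3, Lamp1, Cd63, Mcoln1, Atp6v0b, Atp6v0c, Atp6v0d1, Atp6v1b2, Atp6v1f, Atp6v1h, Atp6ap1, Ctsc, Ctsf, Gaa, Hexa and Smpd1. These counts come with no test, since genes of a pathway are not independent samples. In sorted bulk samples, fewer cells of a type and less RNA per cell cannot be told apart.

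**Figure D1:**
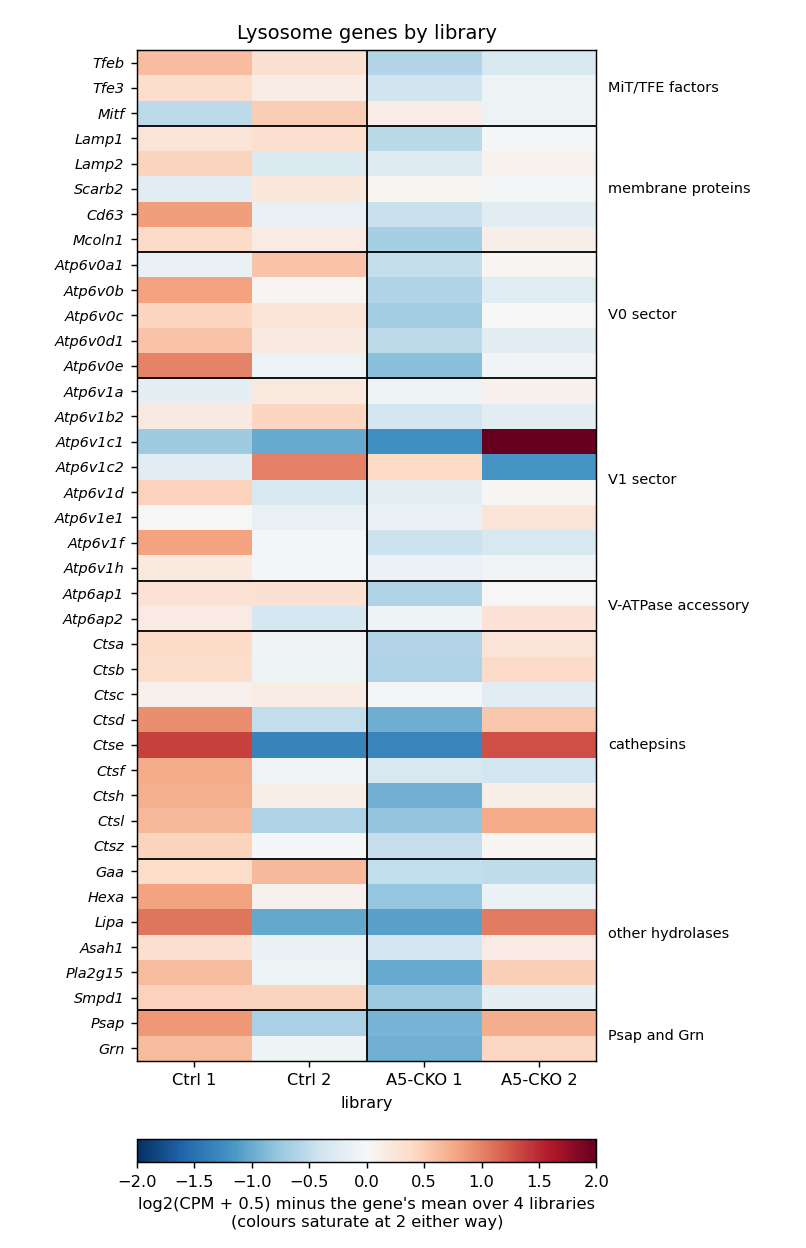
Each row is 1 of the 40 lysosome genes, ordered by role, and each column is 1 library; the color gives log2(CPM + 0.5) minus the mean of that gene over the 4 libraries, with no error bars since each cell is 1 value. A5-CKO 1 is the lowest library for most rows, whereas Ctse, Lipa, Psap, Ctsd and Ctsl are high in Ctrl 1 and A5-CKO 2 and low in Ctrl 2 and A5-CKO 1.

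The size of the difference depended on which libraries were set against each other. Against Ctrl 1, the median lysosome gene was lower by 0.97 on the log2 scale in A5-CKO 1 (36 of 40 lower, against 49.3% of all genes) and lower by 0.30 in A5-CKO 2 (31 of 40, against 49.3%). Against Ctrl 2, the median difference was -0.50 for A5-CKO 1 (35 of 40 lower, against 52.2% of all genes) and only -0.07 for A5-CKO 2 (22 of 40, against 53.9%). The lowest library was thus A5-CKO 1, and the pair Ctrl 2 and A5-CKO 2 showed almost no median difference. Leaving out A5-CKO 2 moved the count of genes with no overlap from 17 to 34 (85% of the 40, against 36.8% of all genes), and leaving out Ctrl 2 moved it to 30 (75%, against 34.9%). Without Ctrl 1 it was 19 (47.5%, against 35.6%), and without A5-CKO 1 it was 18 (45%, against 36.4%), where the median lysosome gene was only 0.11 below the median of all genes. The excess over all genes was therefore smaller when either of these libraries was left out. With library totals alone in place of TMM factors, the median of all genes moved to 0.30, the median of the lysosome genes to -0.12 (0.42 below all genes), the genes lower in both A5-CKO libraries to 5 of 40 (against 10.1% of all genes), and those higher in both to 3 (against 34.8%). A correction for GC content and length moved several named values by over 1.5 times: Tfeb to -0.56, Cd63 to -0.49, Atp6v0b and Atp6v0d1 to -0.48, Atp6v1f to -0.46, Ctsf to -0.45, Atp6v1h to -0.76 and Ctsc to -0.60. With this correction, the median of the 40 was -0.45, against -0.08 over all genes. The genes lower in both A5-CKO libraries were then 21 of 40 (52.5%, against 25.0% of all genes).

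**Figure D2:**
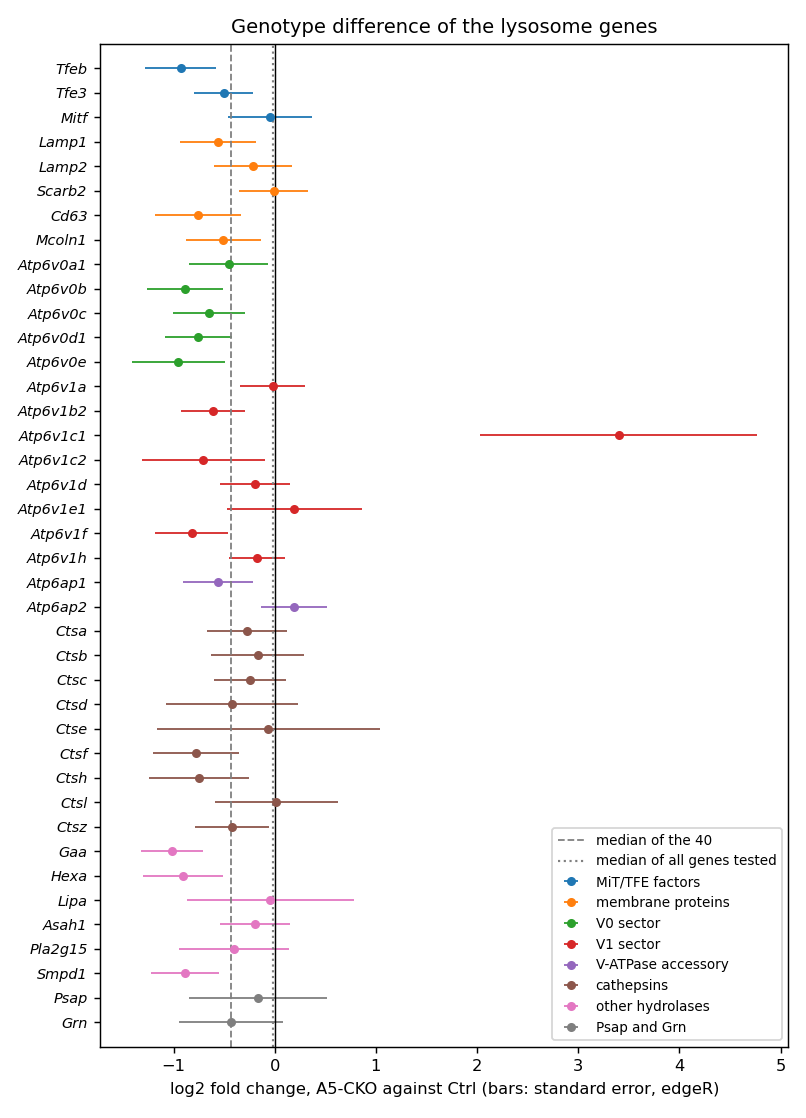
Points give the log2 fold change of A5-CKO against Ctrl for each of the 40 lysosome genes and bars its standard error, from edgeR on 2 libraries a genotype; the dashed line is the median of the 40 (-0.43) and the dotted line that of all 16661 genes tested (-0.02). All but 4 points lie left of 0, and the only gene far to the right is Atp6v1c1 at 3.40, which rests on A5-CKO 2.

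Of the transcription factors, Tfeb, a regulator of lysosome formation and autophagy, had 36.4, 29.1, 15.5 and 18.8 CPM. Both A5-CKO values were well below both Ctrl values, and the mean was 32.8 ± 5.10 CPM (SD, n = 2) in Ctrl and 17.2 ± 2.38 in A5-CKO (log2 fold change -0.93, SE 0.35, edgeR unadjusted p = 0.0321 and adjusted p = 0.528). Tfe3, its close relative, had 96.5, 83.8, 56.9 and 70.1 CPM (log2 fold change -0.51, SE 0.29, edgeR unadjusted p = 0.123). Its libraries did not overlap between genotypes either. Mitf, the third factor, better known from pigment cells and osteoclasts, had 22.6 and 46.3 CPM in Ctrl and 36.0 and 30.6 CPM in A5-CKO, both inside the Ctrl range. Per kilobase of transcript, the mean level over the 4 libraries was 23.4 CPM for Tfe3, 10.9 for Tfeb and 6.94 for Mitf. Tfe3 was thus the most abundant of the 3 in every library.

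Since these factors bind E-boxes, the promoters of the lysosome genes were searched for the palindrome CACGTG, which reads the same on both strands, in the RefSeq windows of GRCm38.p6 that run from 250 bases before to 50 bases after a gene's start. A window was found for 33 of the 40 genes, and 11 of these held the motif (33.3%), against 8.09% of the 27025 genes with a window and 7.15% of all 32851 windows. It was in 6 of the 15 matched genes that were lower in both A5-CKO libraries and in 5 of the 18 others. No difference was read from counts this small. The longer palindrome with GT before and AC after these letters, which is close to the consensus motif of lysosomal promoters, was in 0 of the 33 windows and in 0.370% of all genes with a window. A match is a description of the letters in the window, not of binding. The 30 bases around the copy nearest to the start are given below for the 6 lower in both A5-CKO libraries, and for Ctsd, which was not, on the strand of the gene, with the motif in capitals.
Lamp1 (chr8:13159134-13159163, + strand, motif 15 bases before the start): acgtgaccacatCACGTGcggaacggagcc
Mcoln1 (chr8:3500462-3500491, + strand, 45 bases before): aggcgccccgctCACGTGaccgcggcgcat
Atp6v0b (chr4:117887330-117887359, - strand, 18 bases before): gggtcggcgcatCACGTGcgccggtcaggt
Atp6v0d1 (chr8:105566050-105566079, - strand, 3 bases before): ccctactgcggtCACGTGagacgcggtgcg
Gaa (chr11:119267811-119267840, + strand, 140 bases before): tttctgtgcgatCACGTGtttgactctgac
Ctsf (chr19:4855074-4855103, + strand, 79 bases before): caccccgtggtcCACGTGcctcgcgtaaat
Ctsd (chr7:142387908-142387937, - strand, 98 bases before): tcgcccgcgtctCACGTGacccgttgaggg
The Lamp1 window held 4 copies of CACGTG, those of Mcoln1, Atp6v0b and Ctsd 2 each, and those of Atp6v0d1, Gaa and Ctsf 1 each. The other 4 lysosome genes with the motif were Atp6v0e, Atp6v1a, Ctsa and Ctsl.

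Among the membrane proteins, 3 of 5 were lower in both A5-CKO libraries with no overlap (60%, against 23.5% of all genes). The median log2 fold change was -0.51. Lamp1, which with Lamp2 makes up much of the lysosomal membrane's protein, had 1556, 1629, 894 and 1270.0 CPM (log2 fold change -0.56, SE 0.37, edgeR unadjusted p = 0.181). Cd63, a tetraspanin of late endosomes and lysosomes, had 1080.3, 545, 444 and 516 CPM (log2 fold change -0.76, SE 0.42). Ctrl 2 exceeded A5-CKO 2 only slightly for Cd63, so its gap came mainly from Ctrl 1. Mcoln1, the calcium release channel of the lysosome, had 45.5, 39.3, 21.9 and 37.8 CPM (log2 fold change -0.51, SE 0.37), with the A5-CKO 2 value just under the lower Ctrl value. Lamp2 (445 to 732 CPM) and Scarb2, the receptor that carries glucocerebrosidase to the lysosome (461 to 626 CPM), overlapped between the genotypes.

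The 15 V-ATPase genes summed to 3486, 3478, 2197 and 2603 CPM. The 2 Ctrl libraries were almost equal in this sum, and the A5-CKO libraries were the lower ones. The 9 cathepsins summed to 10639.9, 6844, 4672 and 8441 CPM, where A5-CKO 2 exceeded Ctrl 2. Of the 15 V-ATPase genes, 12 had a log2 fold change below 0 (against 50.9% of all genes), and the median was -0.56. With library totals alone, the median was -0.24, against 0.30 over all genes. With no overlap, 7 of the 15 were lower in both A5-CKO libraries (46.7%, against 23.5% of all genes).

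In the V0 sector, all 5 genes had a log2 fold change below 0 (against 50.9% of all genes), with a median of -0.75. Of the 5, 3 were lower in both A5-CKO libraries with no overlap (60%, against 23.5% of all genes). Atp6v0b, 1 of the proteolipids of the rotor ring, had 446, 264, 169 and 215 CPM (log2 fold change -0.89, SE 0.38, unadjusted p = 0.0520 in edgeR and 0.0465 in DESeq2, where the adjusted p was 0.463). The whole span of Atp6v0b is overlapped by the long non-coding RNA gene Gm12841 (906 to 2118 counts), and it is not known whether the counting used strand, so reads of the 2 genes cannot be told apart with certainty. Atp6v0c, the main proteolipid of the ring, had 305, 269.9, 139 and 228 CPM (log2 fold change -0.65, SE 0.36). It shares a nearly identical stretch of 387 bases with the pseudogene Atp6v0c-ps2, which had 37 to 94 counts. Atp6v0d1, which couples the ring to the central stalk, had 419.9 and 322 CPM in Ctrl and 196 and 244 CPM in A5-CKO (log2 fold change -0.75, SE 0.33, edgeR unadjusted p = 0.0582). All 4 of its values were thus ordered by genotype, with a gap between 244 and 322 CPM. Atp6v0a1, which had the most counts of the V0 genes and encodes 1 of 4 forms of the subunit that forms the proton channels, had 346, 567, 274 and 391 CPM (log2 fold change -0.46, SE 0.39) and overlapped between the genotypes. Atp6v0e, a small membrane subunit, had 247, 115, 68.6 and 118 CPM, with A5-CKO 2 just above Ctrl 2.

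In the V1 sector, 6 of 8 genes had a log2 fold change below 0 (against 50.9% of all genes), with a median of -0.19. Of the 8, 3 were lower in both A5-CKO libraries with no overlap (37.5%, against 23.5% of all genes). Corrected for GC content and length, the median was -0.47 in V1 and -0.51 in V0. With library totals alone, it was 0.12 in V1 and -0.44 in V0. Atp6v1b2, which shares the ATP-binding sites with the catalytic subunit, had 413 and 491 CPM in Ctrl and 280.3 and 312 CPM in A5-CKO (log2 fold change -0.61, SE 0.32, edgeR unadjusted p = 0.0992). Atp6v1a, the catalytic subunit itself, had 236, 310.1, 252 and 286 CPM, with both A5-CKO values inside the Ctrl range. These 2 subunits alternate in the same ring, and their libraries ordered differently. Atp6v1f, a subunit of the rotor, had 181, 100.5, 76.4 and 82.6 CPM (log2 fold change -0.82, SE 0.36, edgeR unadjusted p = 0.0571). Atp6v1h, the regulatory subunit, had 114, 98.8, 92.1 and 96.7 CPM, a gap of a few CPM (log2 fold change -0.18, SE 0.28, and 0.14 with library totals alone). Atp6v1d, another rotor subunit, overlapped between the genotypes (68.0 to 117 CPM).

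Atp6v1c1 and Atp6v1c2 encode alternative forms of subunit C, which joins V1 to V0, and were read very unequally. Atp6v1c1 (chr15:38661904-38692444, GRCm38.p6) had 19, 14, 14 and 466 counts, or 1.12, 0.815, 0.634 and 19.9 CPM. Its log2 fold change of 3.40 (SE 1.37, edgeR unadjusted p = 0.0427 and adjusted p = 0.528) therefore came from 1 library, and was -0.64 without A5-CKO 2. A5-CKO 1 had the lowest value of the 4 libraries. Atp6v1c2, the form of lung and kidney epithelia, had 179, 420.1, 275 and 91.8 CPM, and was lowest in the library where Atp6v1c1 was highest. Of the CPM per kilobase of the pair, Atp6v1c2 made up 99.5%, 99.9%, 99.8% and 86.0% in the 4 libraries. Atp6v1e1, the stalk subunit E of most tissues, had only 23, 20, 26 and 40 counts, and Atp6v1e2 had 0 counts in each library. A level of 1.16 to 1.71 CPM for an obligate subunit stood far below the other V1 genes, of which all but Atp6v1c1 reached at least 68.0 CPM in each library. Among GENCODE M21 transcripts, no other with at least 95% identity over 200 bases was found for Atp6v1e1 or Atp6v1c1. Copies outside that annotation could not be searched, and the pseudogene Gm19245 overlaps Atp6v1e1 over 330 bases. Loss of reads to a copy was therefore not checked in full, and the cause of these low counts was not tested.

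Subunits B, G and E were also read almost wholly from 1 gene each, Atp6v1b2 (at least 99.8% of the CPM per kilobase), Atp6v1g1 (at least 99.3%) and Atp6v1e1. Subunit a was more even. Atp6v0a1 made up 62.3%, 77.2%, 64.2% and 64.6% of the CPM per kilobase of the 4 subunit a genes. Tcirg1, the form of osteoclasts and macrophages, made up 21.8%, 7.06%, 22.9% and 15.9%. Its share was lowest in Ctrl 2 and did not follow the genotypes. For subunit d, Atp6v0d2, which macrophages and osteoclasts use, made up 10.6% and 12.3% in Ctrl 1 and A5-CKO 2 and 2.46% and 4.52% in Ctrl 2 and A5-CKO 1, so that its share was higher in the 2 libraries with more macrophage markers.

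**Figure D3:**
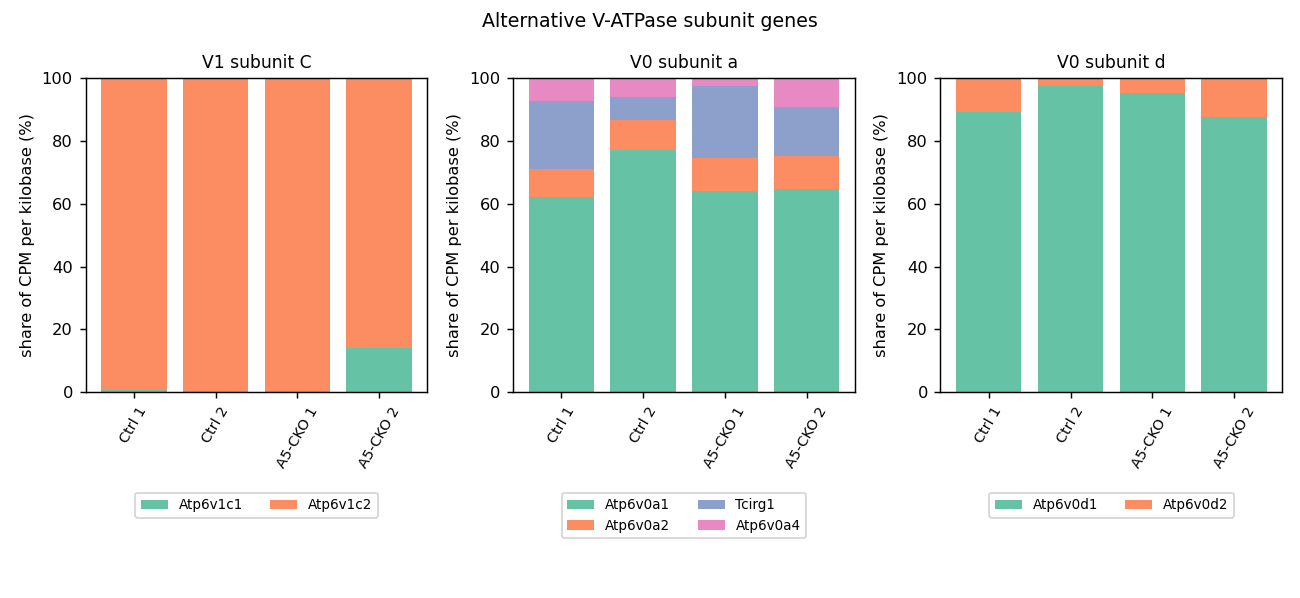
Stacked bars give, in each library, the share of CPM per kilobase of transcript that each alternative gene contributed to V-ATPase subunits C, a and d; each bar is 1 library and has no error. Atp6v1c2 makes up at least 99.5% of subunit C in 3 libraries and 86.0% in A5-CKO 2, and Atp6v0d2 is largest in Ctrl 1 and A5-CKO 2.

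The accessory subunits differed from each other. Atp6ap1, needed for assembly of the V0 sector, had 358 and 364 CPM in Ctrl and 195 and 295 CPM in A5-CKO (log2 fold change -0.56, SE 0.34, edgeR unadjusted p = 0.149). Its Ctrl values were nearly the same and both A5-CKO values lay below them. Atp6ap2, the prorenin receptor, had 123, 85.8, 103 and 134 CPM, and was highest in A5-CKO 2.

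Of the 9 cathepsins, 8 had a log2 fold change below 0 (against 50.9% of all genes), and the median was -0.28. Only Ctsc and Ctsf had no overlap, both lower in A5-CKO (22.2%, close to the 23.5% of all genes). Ctsh, the aminopeptidase cathepsin H and the most abundant lysosome gene of the 40 per kilobase (1323 CPM per kilobase on average), had 3235, 2132, 1018 and 2169.5 CPM (log2 fold change -0.75, SE 0.49, edgeR unadjusted p = 0.173). A5-CKO 2 was thus at the level of Ctrl 2, and A5-CKO 1 alone stood below. Ctsc, cathepsin C or dipeptidyl peptidase 1, had 1583, 1654, 1459 and 1276 CPM, the narrowest spread of the abundant cathepsins (log2 fold change -0.24, SE 0.36, and 0.07 with library totals alone). Ctsf, the cysteine protease cathepsin F, had 25.9, 14.7, 12.1 and 11.5 CPM (log2 fold change -0.78, SE 0.43). Its Ctrl libraries differed from each other by more than Ctrl 2 differed from either A5-CKO library. Ctsa, which protects other lysosomal enzymes, ranged from 169 to 331 CPM, Ctsb from 806 to 1622 CPM and Ctsz from 283 to 534 CPM, and in each of the 3 A5-CKO 1 was the lowest library and A5-CKO 2 lay above Ctrl 2. Ctsb overlaps Fdft1 (3187 to 3758 counts) over 774 bases and Ctsa overlaps Pltp (693 to 1538 counts) over 1515 bases, so the levels of both are uncertain.

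Among the other hydrolases, all 6 had a log2 fold change below 0 (against 50.9% of all genes), with a median of -0.64. Of the 6, 3 were lower in both A5-CKO libraries with no overlap (50%, against 23.5% of all genes). Gaa (chr11:119267963-119285458, GRCm38.p6), the acid alpha-glucosidase that degrades glycogen, had 282, 343, 156 and 154 CPM. The mean was 313 ± 43.0 CPM (SD, n = 2) in Ctrl and 155 ± 1.60 in A5-CKO, a 2.02-fold lower level (log2 fold change -1.01, SE 0.31, edgeR unadjusted p = 0.0136 and adjusted p = 0.528). This was the smallest unadjusted p of the 40. Of the 17 genes lower in both A5-CKO libraries, only Gaa and Ctsc took the reverse order of the macrophage markers. They were higher in Ctrl 2 than in Ctrl 1 and in A5-CKO 1 than in A5-CKO 2. Part of this order rested on small differences: 156 against 154 CPM for Gaa in A5-CKO, and 1583 against 1654 CPM for Ctsc in Ctrl. Smpd1 (chr7:105554360-105558389), the acid sphingomyelinase, had 325, 323, 142 and 208 CPM (log2 fold change -0.89, SE 0.34, edgeR unadjusted p = 0.0333 and adjusted p = 0.528). The Ctrl libraries were almost equal, and the A5-CKO libraries were further apart. Hexa, the alpha subunit of beta-hexosaminidase, had 341, 207, 114 and 179 CPM (log2 fold change -0.91, SE 0.39, edgeR unadjusted p = 0.0561). Asah1, acid ceramidase, ranged from 149 to 242 CPM and Pla2g15, the lysosomal phospholipase A2 that acts on surfactant phospholipid in alveolar macrophages, from 14.3 to 45.6 CPM, each lowest in A5-CKO 1 and with A5-CKO 2 above Ctrl 2.

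A second pattern ran across the genotypes. Ctrl 1 exceeded Ctrl 2 and A5-CKO 2 exceeded A5-CKO 1 for 29 of the 40 lysosome genes (72.5%), against 27.1% of all genes tested. In 5 of the 40 (12.5%, against 3.65% of all genes) both differences were at least 2-fold: Ctsd, Ctse, Ctsl, Lipa and Psap. Both the pairing of Ctrl 1 with A5-CKO 2 and these 5 genes were singled out after the values were seen. Over the 40 genes, the difference of Ctrl 1 from Ctrl 2 and that of A5-CKO 2 from A5-CKO 1, which share no library, had a Pearson r of 0.61 and a Spearman rho of 0.54 across genes (0.36 and 0.24 over all genes tested). Genes of 1 library share its cells and are not independent replicates. The difference within a genotype was larger than that between the genotypes for 30 of the 40, or 75%, close to the 69.4% of all genes.

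Ctsd, the aspartic protease cathepsin D, had 2991, 1123, 799 and 2277 CPM. The 2 low libraries were of different genotypes, as were the 2 high ones, with ratios of 2.66 within Ctrl and 2.85 within A5-CKO. Ctsl, the cysteine protease cathepsin L, had 341, 139.6, 124 and 361 CPM (ratios 2.44 and 2.92). It shares identical stretches of 977 bases with Gm47123 and 395 bases with the pseudogene Gm49230. Ctsd shares 671 identical bases with Gm49369. None of these other genes is in the count table, so the levels of Ctsl and Ctsd are uncertain. Ctse, an aspartic protease of immune and some epithelial cells, had 17.98, 2.33, 2.35 and 17.1 CPM, the steepest case (ratios 7.72 and 7.24). Its values in Ctrl 2 and A5-CKO 1 were almost the same. Lipa, the lysosomal acid lipase that frees cholesterol and fatty acids from lipoprotein lipid, had 86.4, 19.9, 18.9 and 84.0 CPM (ratios 4.34 and 4.44). Psap, the precursor of the saposins that activate sphingolipid hydrolases, had 1551, 542, 447 and 1418 CPM (ratios 2.86 and 3.18). Its log2 fold change between genotypes was -0.17 (SE 0.68) and turned above 0 without Ctrl 1 (0.86), without A5-CKO 1 (0.43) and with library totals alone (0.13). Grn, the progranulin precursor, which is also rich in macrophages, had 473, 286, 156 and 406 CPM, in the same order of libraries within each genotype.

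**Figure D4:**
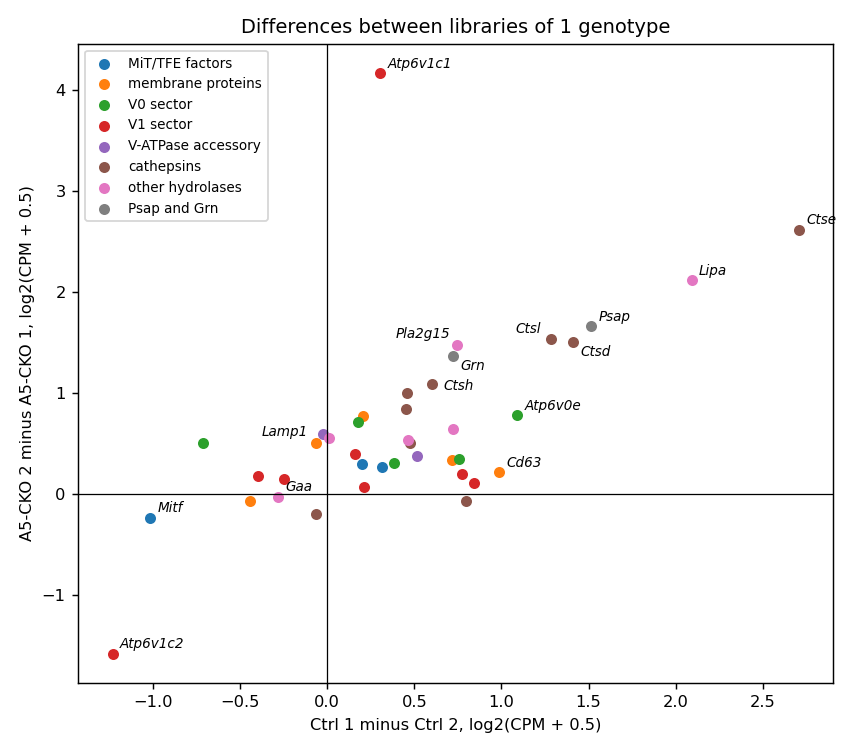
Each point is 1 of the 40 lysosome genes, colored by role; the horizontal axis gives the difference of Ctrl 1 from Ctrl 2 and the vertical axis that of A5-CKO 2 from A5-CKO 1, both in log2(CPM + 0.5), with no error since each difference is between 2 libraries. Of the 40 points, 29 lie in the upper right quadrant, with Ctse, Lipa, Psap, Ctsd and Ctsl farthest along the diagonal and Atp6v1c1 high on the vertical axis alone.

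The macrophage markers took the same order of libraries. Without the 3 lysosomal genes of that list, the other 17 summed to 4005, 826, 775 and 3294 CPM, and 16 of the 17 were higher in Ctrl 1 than in Ctrl 2 and in A5-CKO 2 than in A5-CKO 1. C1qa, a complement gene of macrophages, had 164, 8.90, 12.2 and 203 CPM. The summed markers of mesenchymal cells (398, 149, 96.2 and 1025 CPM, 6 of 7 genes in this order) and of transitional epithelial cells (2765, 1337, 1757 and 2912 CPM, 6 of 6) were also higher in Ctrl 1 and A5-CKO 2 than in the other pair. The lymphocyte and plasma list summed to 744, 155, 203 and 689 CPM, but only 3 of its 8 genes took this order and Jchain carried the sum (622, 69.6, 136 and 634 CPM). The AT1 list summed to 1499, 1249.9, 1273 and 1293 CPM, with Aqp5 the largest part. Of its 6 genes tested, 4 were higher in both A5-CKO libraries (Hopx, Cav1, Akap5 and Clic5), against 20.3% of all genes. Aqp5 alone was lower in both (against 23.5% of all genes), and the median log2 fold change was 0.69. The AT1 markers Ager (0.0905 to 0.349 CPM) and Pdpn (0 to 0.770 CPM) did not pass the filter on low counts and were not tested. The sums for neutrophils (355, 614, 274 and 724 CPM), endothelial cells (73.9, 140.4, 83.7 and 129.6 CPM), club cells (2753, 2672, 1887 and 1232 CPM) and ciliated cells (136, 129, 125 and 46.4 CPM) did not take the macrophage order, and 1 AT1 and 1 endothelial marker were at 0 in at least 1 library. The club and ciliated sums were lower in both A5-CKO libraries, as were 2 of the 3 genes in each list (against 23.5% of all genes). The AT2 markers ordered by genotype too: the 7 of them that are not lysosomal summed to 48877, 70816, 35777 and 30074 CPM. Of the 7, 6 were lower in both A5-CKO libraries, against 23.5% of all genes. Within each genotype the AT2 sum ran opposite to the macrophage sum. Of the 17 lysosome genes lower in both A5-CKO libraries, 11 took the macrophage order within both genotypes. This order was found for 29 of all 40 lysosome genes (72.5%) and for 27.1% of all genes tested. The part of AT2, AT1, macrophage or other cells in these differences was not tested. Ctrl 2 and A5-CKO 1, the 2 libraries with low macrophage markers, were set side by side after the values were seen. Between them, 35 of the 40 lysosome genes were lower in A5-CKO 1, against 52.2% of all genes. The median log2 difference was -0.50, with 1 library a genotype, so with no test. The AT2 sum of this pair also differed, at 70816 CPM in Ctrl 2 and 35777 CPM in A5-CKO 1.

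**Figure D5:**
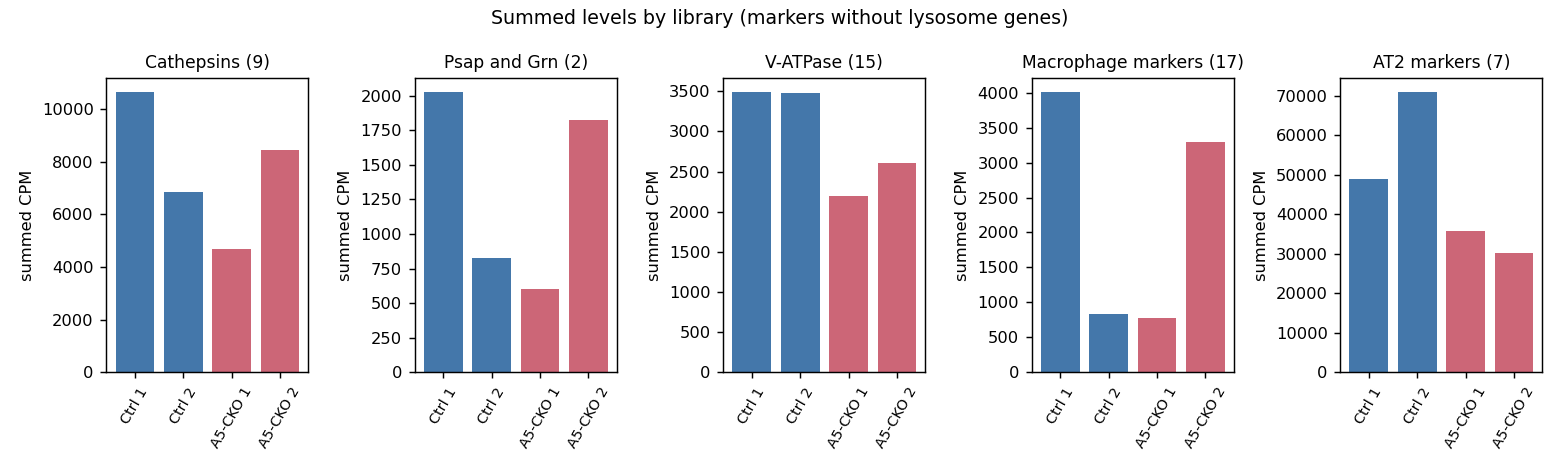
Bars give the summed CPM in each library (blue Ctrl, red A5-CKO; 1 value a bar, so no error) of the 9 cathepsins, of Psap and Grn, of the 15 V-ATPase genes, of 17 macrophage markers and of 7 AT2 markers, the marker lists without their lysosomal genes. The V-ATPase and AT2 sums are lower in both A5-CKO libraries, while those of Psap, Grn and the macrophage markers are highest in Ctrl 1 and A5-CKO 2.

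Per kilobase of transcript, the order of mean levels over the 4 libraries was led by Ctsh (1323 CPM per kilobase), Ctsd (845), Lamp1 (599.9), Ctsc (599), Cd63 (583) and Psap (372). Neighbors from Ctsd to Psap did not differ beyond their spread: Ctsd alone ranged from 376 to 1406 and Cd63 from 400.5 to 974. Lamp1 and Ctsc were nearly equal. The V-ATPase genes other than Atp6v1c1 and Atp6v1e1 held the middle of the order, from Atp6v0b (274) to Atp6v1d (23.6). Mitf (6.94), Ctsf (8.12), Ctse (4.67), Atp6v1c1 (2.71) and Atp6v1e1 (1.03) were the last 5.

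Of 84 other lysosome genes listed, 80 passed the filter on low counts (not Atp6v1b1, Atp6v1e2, Atp6v1g2 and Neu1). None passed an adjusted p of 0.05 in edgeR or DESeq2, and 6 passed an unadjusted p of 0.05 in edgeR, or 7.5% against 9.18% of all genes, 4 lower and 2 higher in A5-CKO. DESeq2 gave 7, against 10.3% of the genes edgeR tested. These shares were below those of all genes. Of the 80, 56 had a log2 fold change below 0 (against 50.9% of all genes), and the median was -0.22 (against -0.02). With library totals alone, the median was 0.099, against 0.30 over all genes. With no overlap, 23 were lower in both A5-CKO libraries (28.8%, against 23.5% of all genes) and 6 higher (7.5%, against 20.3%). The 4 lower genes were Napsa, Gnptg, Lamtor4 and Atp6v1g1. Napsa, the aspartic protease napsin A that cleaves surfactant protein B precursor and marks AT2 cells, had 4078 and 4505 CPM in Ctrl and 1846 and 2087 CPM in A5-CKO (log2 fold change -1.13, SE 0.39, edgeR unadjusted p = 0.0227). Gnptg, a subunit of the enzyme that tags hydrolases with mannose 6-phosphate, had 111 and 111 CPM against 70.5 and 58.4 CPM (log2 fold change -0.78, SE 0.28). Both groups were tight for Gnptg. Lamtor4, of the Ragulator complex that anchors mTORC1 to lysosomes, had 80.0, 48.1, 32.7 and 35.2 CPM (log2 fold change -0.91, SE 0.35, and -0.48 corrected for GC content and length). Atp6v1g1, the stalk subunit G of the V-ATPase, had 549.7, 360.4, 239.6 and 257 CPM (log2 fold change -0.87, SE 0.35), in the direction of Atp6v1b2 and Atp6v1f. The 2 higher genes were Ctns, the lysosomal cystine exporter, with 8, 7, 28 and 50 counts (log2 fold change 1.94, SE 0.74), and Fnip1, a partner of folliculin in nutrient sensing, with 40.5, 24.2, 56.0 and 60.9 CPM (log2 fold change 0.85, SE 0.35, and 0.27 corrected for GC content and length). Ctss, the cathepsin of antigen-presenting cells and a macrophage marker, had 833, 87.8, 129.9 and 718 CPM, and Acp5, a phosphatase of macrophages and osteoclasts, had 89.3, 21.9, 16.1 and 77.9 CPM, both in the order of the macrophage list.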

How the data were processed

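AT2 cells sorted 14 days after bleomycin from Ctrl and A5-CKO mice, 2 libraries each, were measured by RNA-seq. The deposited values are whole read counts per gene. The authors trimmed the reads (Trim Galore 0.6.10), removed ribosomal sequence, aligned with HISAT2 2.2.1 to mm10 and counted with featureCounts 2.0.3; their methods describe the counting under the m6A sequencing and not under the RNA-seq, so it was taken to hold for both, and the strand setting is not given in the sources used here. Duplicate reads were removed, which can lower the levels of the most abundant genes. The same description of the counting keeps only uniquely mapped reads, which can lower the levels of genes with near-identical copies.

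The main test was edgeR 4.0.16 under R 4.3.3 (TMM, filterByExpr, quasi-likelihood F test, defaults), fitted to all 4 libraries, with Benjamini-Hochberg adjustment over 16661 genes. The biological coefficient of variation was 41.6%. With 2 libraries against 2, an exact permutation test of 1 value cannot go below p = 0.333, so none was run. Other settings tried were scaling by RLE, by upper quartile or by library totals alone, DESeq2 1.42.0, limma 3.58.1 voom, other filters on low counts, a robust fit, replicate numbers as a block, a correction for GC content and length, and leaving out each library. A count of 10 was the minimum in the stricter filter and 0.5 CPM the pseudocount on log scales. Levels per kilobase use the longest principal coding transcript in GENCODE M21. The correction for GC content and length uses the longest transcript of any kind there, which can differ (4829 against 2049 bases for Atp6v1h). Promoters are from RefSeq. The lysosome genes and all gene and marker lists were chosen with earlier results of these data known. Genes named with their statistics are those with an unadjusted p under 0.05 in either tool, those without overlap between genotypes and the gene with the most counts of each role. Of the other lysosome genes, those under that p without overlap are named. The fits were also run on simulated counts, with independent libraries and changes larger than most seen here. Those runs therefore do not show how well differences of the size seen here would be found.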

Additional observations from a re-analysis of the deposited data

How the results depend on the processing

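No lysosome gene passed an adjusted p of 0.05 under any alternative run (the smallest adjusted p among the named genes was 0.0726). Of 458 values, each the log2 fold change of a named gene under 1 alternative, 450 kept their direction and side of the threshold and 8 reversed. The named genes were 21 of the 40 and 6 other lysosome genes. Most were named for groups without overlap or an unadjusted p under 0.05, so a steady direction was partly selected for. These values do not describe the lysosome genes that were not named. With upper-quartile factors, 2 lysosome genes passed an unadjusted p of 0.05 in place of 4 (8.91% of all genes). With library totals alone, 1 passed (11.3% of all genes), and 3 other lysosome genes passed in place of 6. Of the 40, 5 were lower in both A5-CKO libraries (10.1% of all genes) and 3 higher (34.8%). Among the named genes, Atp6v1h (0.14), Ctsc (0.074) and Psap (0.13) reversed. Over all 40, those with a log2 fold change below 0 went from 36 to 23 (31.4% of all genes). Correcting for GC content and length left 3 other lysosome genes (7.35% of all genes) and put Psap at 0.035. The replicate numbers did not pair the libraries: the deviations of same-numbered libraries correlated at -0.36 across genes. With the replicate block, 1 lysosome gene and 0 other lysosome genes passed an unadjusted p of 0.05 (4.53% of all genes); with the block and the GC and length correction together, again 1 and 0 (3.22% of all genes), with Psap at 0.012. With the numbers crossed, chosen after seeing the data, 11 and 11 passed (15.5% of all genes). Alkbh5 passed an adjusted p of 0.05 by DESeq2 on the genes edgeR tested (-2.01 on the log2 scale, adjusted p = 0.0214), by DESeq2 at its defaults (-2.02, adjusted p = 0.0224) and with the crossed block (-2.06, adjusted p = 0.00112). Leaving out each library in turn gave 1 to 9 lysosome genes past an unadjusted p of 0.05 (9 without Ctrl 2, 1 without Ctrl 1 or A5-CKO 2, against 4.30% to 9.25% of all genes), 1 to 8 other lysosome genes, 18 to 34 genes lower in both (34.9% to 36.8% of all genes, 18 of 40 being 45%) and 0 to 5 higher in both (33.7% to 38.5% of all genes), a median log2 fold change from -0.88 (without A5-CKO 2) to -0.19 (without Ctrl 1), an Alkbh5 log2 fold change from -2.63 to -1.58, an Atp6v1c1 log2 fold change from -0.64 (without A5-CKO 2) to 4.34, and Psap from -1.26 to 0.86 (0.86 without Ctrl 1 and 0.43 without A5-CKO 1). Ctrl 2 and A5-CKO 1 alone, also chosen after seeing the data, gave 35 lower (52.2% of all genes) and 5 higher (7946 of the 16661 genes tested). Where a library was left out, the lone library of its genotype was assumed to vary like the others. Counts without overlap come from the scaled levels and were not run for DESeq2, voom, the robust fit or the blocks. The cause of these differences was not tested. The depth of 14 to 40 counts limits Atp6v1e1 and, outside A5-CKO 2, Atp6v1c1.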
